A study of Mus musculus with 4 samples.

Results

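The forkhead genes that could remain or take over when *Foxa1* and *Foxa2* are deleted were described in CD69+DP thymocytes. They were the 10 genes *Foxa1*, *Foxa2*, *Foxa3*, *Foxo1*, *Foxo3*, *Foxp1*, *Foxp4*, *Foxj3*, *Foxk1* and *Foxk2*, named as a gene family rather than by a threshold on their values, though with earlier results of these data known, and found by symbol among the 24421 genes listed. A further 34 forkhead genes in the same list were used for comparison, which made 44 forkhead genes in all.

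RNA was sequenced from CD69+CD4+CD8+ (CD69+DP) thymocytes, cells that carry both co-receptors and have raised CD69 after a TCR signal, sorted by FACS from the thymus of 6-week-old mice on a C57BL/6 background. The 2 control samples had the genotype Foxa1fl/flFoxa2fl/fl CD4Cre-, and the 2 Foxa1/2cKO samples had Foxa1fl/flFoxa2fl/fl CD4Cre+. Both groups therefore carried loxP-flanked alleles of both genes and differed in the Cre transgene, which is driven by the *Cd4* promoter and acts from the DP stage onwards. Each sample was sorted on its own from different mice, and the methods give 2 mice of each genotype for a sort without saying whether a sample held 1 mouse or more, so the P-values below measure the spread between these samples only.

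Forkhead proteins bind DNA through a winged-helix domain whose recognition helix lies in the major groove. The Foxa proteins are pioneer factors, which can bind their sites in closed chromatin. In T cells, the Foxo proteins control genes of survival, quiescence and homing and are held out of the nucleus by Akt, Foxp1 keeps naive T cells quiescent, and the Foxk proteins act mainly as repressors.

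The coding bases of the recognition helix were compared between these genes. The 48 bases that hold it follow for 7 of the members, 5′ to 3′ on the coding strand. They come from the GENCODE M21 annotation of GRCm38 (mm10), and capitals mark the bases that differ from *Foxa3*.
Foxa3: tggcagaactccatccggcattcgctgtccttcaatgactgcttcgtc
Foxo1: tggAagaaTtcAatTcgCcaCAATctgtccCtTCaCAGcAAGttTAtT
Foxo3: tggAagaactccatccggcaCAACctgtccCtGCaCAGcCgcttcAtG
Foxp4: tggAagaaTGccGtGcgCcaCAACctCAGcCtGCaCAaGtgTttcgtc
Foxj3: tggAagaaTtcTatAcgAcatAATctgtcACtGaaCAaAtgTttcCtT
Foxk1: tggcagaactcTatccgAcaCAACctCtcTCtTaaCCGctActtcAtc
Foxk2: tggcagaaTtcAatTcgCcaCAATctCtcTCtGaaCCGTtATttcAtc

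With *Foxa3*, the Foxa gene that is not deleted, *Foxo3* shared 34 of the 48 bases, *Foxk1* 33, *Foxj3* 31, *Foxk2* 29, *Foxp4* 28 and *Foxo1* 27. Within the subfamilies the stretches were closer, with 37 shared bases between *Foxo1* and *Foxo3* and 40 between *Foxk1* and *Foxk2*. Codons can differ in bases and still encode the same amino acid. These counts therefore do not rank how alike the proteins are. The stretch was found in frame on the coding strand by a codon motif of 27 letters, which starts at the tryptophan codon TGG and fixes those bases that the codons of the helix have in common, with the 21 bases that follow it. The motif was held by 41 of the 44 forkhead genes and by 6 of the other genes, in all 47 of 21591 genes with a coding sequence, or 0.218%.

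The exon structure also differed. In *Foxa3* (chr7:19014666-19014713, minus strand) the stretch lay within exon 2. In the 6 other members shown an intron cut it after its first 6 bases. These 6 bases ended exon 1 of *Foxo1* (chr3:52269417-52269422, plus strand, with the rest at chr3:52345039-52345080 in exon 2) and exon 2 of *Foxo3* (chr10:42274816-42274821, minus strand, with the rest at chr10:42197860-42197901 in exon 3). They ended exon 13 of *Foxp4* (chr17:47874635-47874640, minus strand, rest at chr17:47871310-47871351 in exon 14). In *Foxj3* they ended exon 3 (chr4:119573795-119573800, plus strand, rest at chr4:119585750-119585791 in exon 4), and in *Foxk1* exon 4 (chr5:142450382-142450387, plus strand, rest at chr5:142451439-142451480 in exon 5). In *Foxk2* they also ended exon 4 (chr11:121290885-121290890, plus strand, rest at chr11:121296029-121296070 in exon 5). Of the 31 other forkhead genes that held the motif, 24 had it in 1 exon and 7 across 2.

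The values used are FPKM, which count fragments per length of gene and per depth, so levels can be compared between genes. This holds less well where the length used was far shorter than the longest annotated transcript. It was 2889 against 6848 bases for *Foxo3*, 5552 against 8665 for *Foxo1* and 2611 against 7705 for *Foxn3*. The effect of this on the order of levels was not tested. The reads recovered from them came to between 10396878 and 14482758 per sample. Foxa1/2cKO 2 stood apart: on the first principal component, with 65.2% of the variance, it lay at 28.5 while the other 3 samples lay between -11.0 and -7.42. Fold changes without it are given beside the main ones below. The cells carried their defining markers in every sample, with *Cd4* between 341.9 and 445.7 FPKM, *Cd8a* between 475.5 and 665.6 FPKM and *Cd69* between 103.0 and 121.0 FPKM.

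*Foxa1* (chr12:57540628-57548029) and *Foxa2* (chr2:148042877-148046969), the deleted genes, had an FPKM of 0 in each of the 4 samples, the controls among them. Their values therefore do not check the genotypes. A count of 0 allows up to 3 reads, counting error only, which is 0.0628 to 0.0871 FPKM for *Foxa1* and 0.0942 to 0.131 FPKM for *Foxa2* over the samples.

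*Foxa3* (chr7:19013283-19023539), the remaining member of the subfamily, had 1 read in control 1 (0.0328 FPKM) and 0 reads in control 2, Foxa1/2cKO 1 and Foxa1/2cKO 2. All 4 values were at or under the limit of 3 reads, 0.0983 to 0.136 FPKM. No level of *Foxa3* over the limits of 0.136 FPKM in Foxa1/2cKO 1 and 0.133 FPKM in Foxa1/2cKO 2 was seen. A rise that stayed below these limits was not detectable at this depth. None of the 14 genes listed as Foxa targets in liver and other endoderm reached the filter used for the test. *Foxa3* itself is on that list and in its sum. The summed level of the list was between 0.295 FPKM in control 2 and 1.08 FPKM in Foxa1/2cKO 1.

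The 7 other members were well above these limits in every sample. The lowest value among them was 13.2 FPKM, of *Foxk2* in Foxa1/2cKO 2, which is at least 151-fold over the limit for *Foxa1*, 101-fold over that for *Foxa2* and 96.8-fold over that for *Foxa3*. In the controls, *Foxp4* was the highest forkhead gene, with 63.7 ± 2.75 FPKM (SD, n = 2), and 89.0% of the 10776 genes tested had a lower control mean. *Foxo1* (33.5 ± 0.701 FPKM, SD, n = 2) and *Foxp1* (32.8 ± 0.113 FPKM, SD, n = 2) followed, above 75.3% and 74.8% of the genes tested.

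Of the members, the next in the controls was *Foxk1*, which came after *Foxm1* and *Foxo4* in the order of all forkhead genes, with 23.2 ± 0.529 FPKM (SD, n = 2), and then *Foxo3*, with 20.2 ± 2.21 FPKM (SD, n = 2). *Foxk2*, with 16.2 ± 0.486 FPKM (SD, n = 2), and *Foxj3*, with 14.2 ± 0.551 FPKM (SD, n = 2), were the lowest of the 7, near the middle of all genes tested (52.7% and 48.6% of genes were lower). The control values of neighbouring members in this order did not overlap, although *Foxp1*, at 32.8 and 32.9 FPKM, lay just under the 33.0 FPKM of *Foxo1* in control 1. Among the other forkhead genes, *Foxk1* overlapped *Foxn3*, and *Foxn2* overlapped *Foxj2*.

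**Figure D1:**
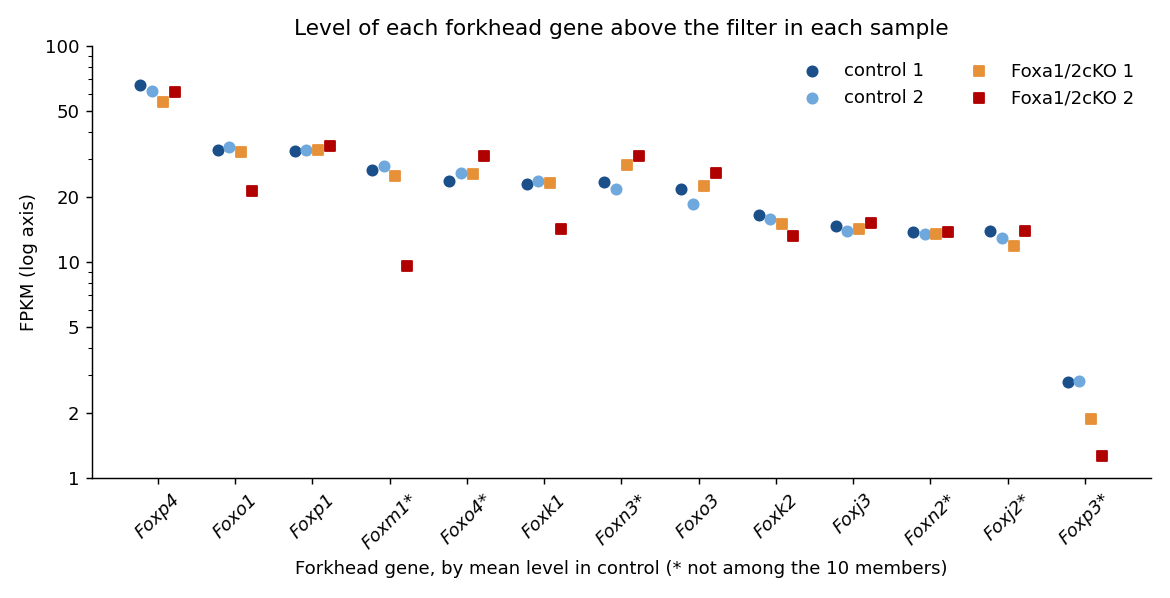
FPKM (log axis) of the 13 forkhead genes above the filter, by mean control level; each point is 1 sample, circles are controls and squares Foxa1/2cKO, and genes marked with an asterisk are not among the 10 members. *Foxp4* is highest in all 4 samples, and Foxa1/2cKO 2 lies far under the other 3 samples for *Foxo1*, *Foxk1* and *Foxm1*.

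To ask whether a remaining forkhead gene was at another level in Foxa1/2cKO, fold changes were taken from limma fitted to log2(FPKM + 1) of the 10776 genes that reached 1 FPKM in 2 samples or more. The 7 members above passed this filter in both groups, and the 3 Foxa genes did not. None of the 7 (0 of 7) was called at 0.05 by limma with Benjamini-Hochberg adjustment over all genes, where 0.00928% of all genes tested were (1 gene). None had an unadjusted p under 0.05 either, against 4.55% of all genes tested. Without Foxa1/2cKO 1, 3 of the 7 were called (*Foxo1*, *Foxk1* and *Foxk2*, all lower), as were 2559 of all genes tested (23.7%), and without Foxa1/2cKO 2, 0 of the 7 and 19 of all genes tested (0.176%) were.

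Of the 7, 2 had both Foxa1/2cKO samples above both controls (*Foxo3* and *Foxp1*) and 3 had both below (*Foxo1*, *Foxp4* and *Foxk2*), while *Foxj3* and *Foxk1* overlapped. Among all genes tested, 18.9% lay apart in the upward and 17.8% in the downward direction. With 2 samples a group, the lowest two-sided p of an exact permutation test is 1 in 3. The median log2 fold change of the 7 was -0.13 and the median of its size was 0.20, beside 0.01 and 0.11 over all genes tested. Without Foxa1/2cKO 2 these medians were -0.0033 and 0.058 for the 7, beside -0.0088 and 0.11 for all genes tested. Fewer cells of a type and less RNA per cell cannot be told apart in these bulk samples.

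**Figure D2:**
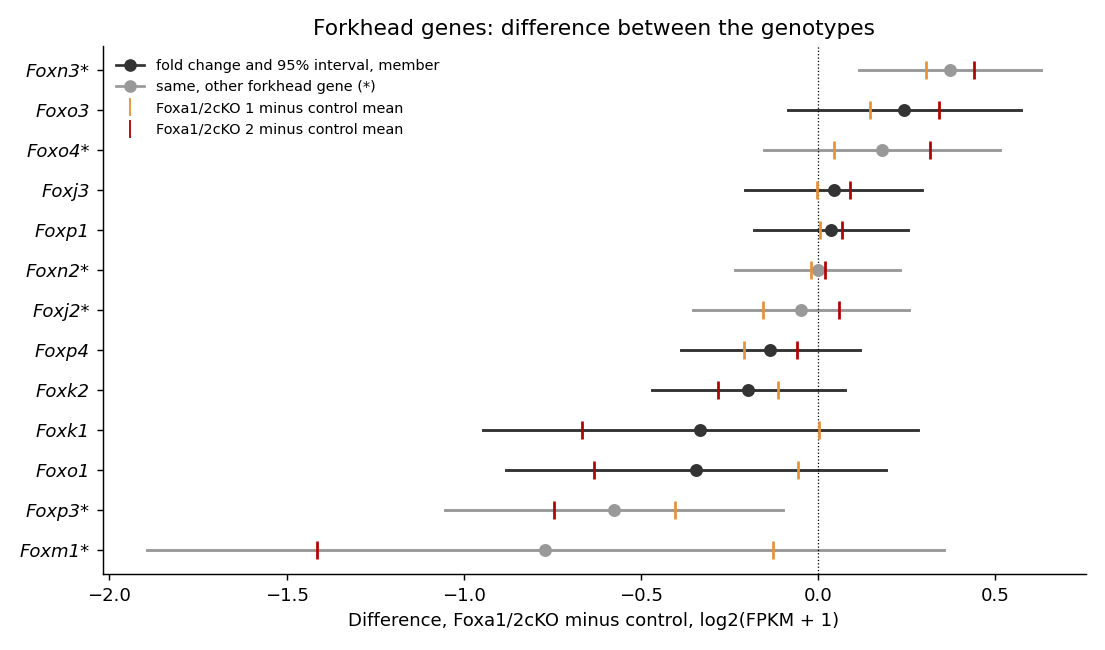
Difference between Foxa1/2cKO and control on log2(FPKM + 1) for the 13 forkhead genes tested; points are limma fold changes with 95% intervals as lines (members dark, other forkhead genes grey with an asterisk), and ticks are each Foxa1/2cKO sample minus the control mean. The interval of every member crosses 0, and the ticks of *Foxo1*, *Foxk1* and *Foxm1* lie far from each other.

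Among the Foxo genes, *Foxo1* (chr3:52268337-52350109), which drives *Il7r* and *Klf2* in T cells, had 33.0 FPKM in control 1 and 34.0 FPKM in control 2 (2740 and 2560 reads). Foxa1/2cKO 1 had 32.1 FPKM and Foxa1/2cKO 2 had 21.2 FPKM (1924 and 1307 reads). Both Foxa1/2cKO values lay under both controls, the first by little and the second by a wide margin. This gave a log2 fold change of -0.35 (SE 0.20, 95% interval -0.88 to 0.19, limma's Benjamini-Hochberg adjusted p = 0.863). Without Foxa1/2cKO 2 it was -0.06, and the single sample Foxa1/2cKO 2 lay -0.63 from the control mean, a distance that 6.19% of all genes tested reached in the same direction. Of its 50-base stretches, 6.8% were shared with other annotated genes, among them its antisense transcript *Gm20402*, so a part of its reads is uncertain.

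*Foxo3* (chr10:42181845-42276695), the Foxo gene known for pro-apoptotic targets such as *Bcl2l11*, had 21.7 and 18.6 FPKM in controls 1 and 2 (940 and 730 reads) and 22.4 and 25.7 FPKM in Foxa1/2cKO 1 and 2 (697 and 825 reads). The Foxa1/2cKO samples were the higher ones, and the gap between Foxa1/2cKO 1 and control 1 was smaller than the gap between the 2 controls. Its log2 fold change was 0.24 (SE 0.13, 95% interval -0.09 to 0.57, limma's Benjamini-Hochberg adjusted p = 0.863), and without Foxa1/2cKO 2 it was 0.14. The upper end of this interval, a 1.49-fold higher level, was the highest of the 7 members.

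*Foxo4* (chrX:101254261-101260873), the third expressed Foxo gene and not one of the 10, had 23.7, 25.9, 25.6 and 31.1 FPKM in control 1, control 2, Foxa1/2cKO 1 and Foxa1/2cKO 2. Its groups overlapped, with a log2 fold change of 0.18 (95% interval -0.15 to 0.51), and 0.04 without Foxa1/2cKO 2. Summed over the 3 genes, a sum chosen after their values were seen, the Foxo level was 78.4 FPKM in control 1, 78.5 FPKM in control 2, 80.0 FPKM in Foxa1/2cKO 1 and 78.0 FPKM in Foxa1/2cKO 2. The sum thus varied by little over the samples, while its make-up differed in Foxa1/2cKO 2. *Foxo1* made up 42.0%, 43.3% and 40.1% of it in the first 3 samples and 27.2% in Foxa1/2cKO 2.

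**Figure D3:**
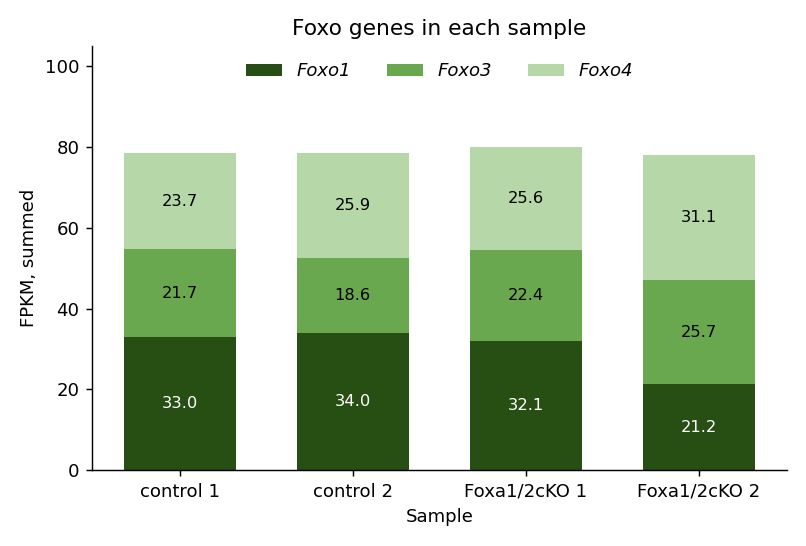
FPKM of *Foxo1*, *Foxo3* and *Foxo4* stacked for each sample, with each gene's value printed in its bar. The summed level is between 78.0 and 80.0 FPKM in all 4 samples, and *Foxo1* is the largest part in 3 of them and the smallest in Foxa1/2cKO 2.

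Of 24 genes listed as Foxo targets, 23 were tested. None was called at an adjusted p under 0.05, 2 were higher and 0 lower at an unadjusted p under 0.05 (limma), and the median log2 fold change was 0.03, beside 2.39% and 2.15% of all genes tested and their median of 0.01. One of these was *Sesn1*, a stress-induced sestrin, with 27.5, 29.0, 33.2 and 35.9 FPKM in controls 1 and 2 and Foxa1/2cKO 1 and 2 (log2 fold change 0.28, and 0.23 without Foxa1/2cKO 2). Both Foxa1/2cKO samples were above both controls for *Sesn1*.

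Of the 23 target genes, 13 were highest and 8 lowest in Foxa1/2cKO 2. Among all genes tested, 40.5% were highest and 33.7% lowest in that sample, whose differences from the control mean had the larger SD (0.37, against 0.23 in Foxa1/2cKO 1, log2). Chosen after their values were seen, 4 genes of T cell homing and survival stood lowest in that sample and inside or near the control range in Foxa1/2cKO 1 (groups overlapping). The IL-7 receptor gene *Il7r* had 33.7, 44.1, 41.5 and 13.4 FPKM in control 1, control 2, Foxa1/2cKO 1 and Foxa1/2cKO 2. *Klf2*, a factor that drives the genes of thymic exit, had 37.0, 43.0, 43.4 and 17.0 FPKM in the same order. The exit receptor gene *S1pr1* (12.3, 13.9, 13.4 and 6.40 FPKM) and the chemokine receptor gene *Ccr7* (82.5, 91.7, 86.9 and 39.1 FPKM) were likewise lowest in Foxa1/2cKO 2.

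All 25 listed regulators of Foxo proteins (kinases of the Akt pathway, 14-3-3 proteins, deacetylases and others) were tested and 0 were called. At an unadjusted p under 0.05 (limma), 1 was higher and 0 lower, beside 2.39% and 2.15% of all genes tested. The list median was 0.06. The 1 was *Stk4*, the kinase Mst1 that phosphorylates Foxo proteins, with 111.6, 108.3, 124.9 and 143.1 FPKM in control 1, control 2, Foxa1/2cKO 1 and Foxa1/2cKO 2 (log2 fold change 0.28, and 0.18 without Foxa1/2cKO 2), both Foxa1/2cKO samples being above both controls.

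The Foxp members had the largest sum of the subfamilies shown, between 87.8 and 98.4 FPKM in each sample. *Foxp4* (chr17:47867133-47924632) had 65.6 and 61.7 FPKM in controls 1 and 2 (3952 and 3372 reads) and 54.9 and 61.0 FPKM in Foxa1/2cKO 1 and 2 (2384 and 2725 reads). It was the one tested member with its lowest value in Foxa1/2cKO 1, and Foxa1/2cKO 2 lay just under control 2. Its log2 fold change was -0.13 (SE 0.10, 95% interval -0.39 to 0.12, limma's Benjamini-Hochberg adjusted p = 0.863), and -0.21 without Foxa1/2cKO 2. *Foxp1* (chr6:98925342-99522746) had 32.8 and 32.9 FPKM in the controls (3670 and 3345 reads) and 32.9 and 34.5 FPKM in Foxa1/2cKO (2661 and 2863 reads).

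All 4 values of *Foxp1* lay close together, with Foxa1/2cKO 2 the highest. Its log2 fold change was 0.04 (SE 0.08, 95% interval -0.18 to 0.25, limma's Benjamini-Hochberg adjusted p = 0.938), an interval from 0.882 to 1.19-fold, and 0.0039 without Foxa1/2cKO 2. Of its 50-base stretches, 4.78% were shared with other annotated genes, among them *Gm20696*, so a part of its reads is uncertain. The 14 listed Foxp partners, mostly subunits of the NuRD chromatin remodelling complex, were all tested and 0 were called. In either direction 0 had an unadjusted p under 0.05 (limma), beside 4.55% of all genes tested, and their median log2 fold change was 0.01. The 2 with the largest differences were *Chd3*, a NuRD ATPase (101.1, 111.9, 91.7 and 68.0 FPKM in control 1, control 2, Foxa1/2cKO 1 and Foxa1/2cKO 2, log2 fold change -0.43, and -0.21 without Foxa1/2cKO 2), and *Mbd2*, a methyl-CpG binding protein (86.3, 91.8, 99.3 and 107.1 FPKM, 0.21, and 0.16 without Foxa1/2cKO 2).

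Of the Foxk genes, *Foxk1* (chr5:142401497-142462015), a repressor linked to glycolysis and autophagy genes, had 22.8 and 23.6 FPKM in controls 1 and 2 (2545 and 2384 reads) and, in Foxa1/2cKO 1 and 2, 23.2 and 14.2 FPKM (1868 and 1176 reads). Foxa1/2cKO 1 lay between the controls and Foxa1/2cKO 2 far below them, so the groups overlapped. Its fitted log2 fold change was -0.33 (SE 0.23, 95% interval -0.95 to 0.28, limma's Benjamini-Hochberg adjusted p = 0.863). Without Foxa1/2cKO 2 it was 0.00, and Foxa1/2cKO 2 alone lay -0.67 from the control mean, a distance reached downwards by 5.63% of all genes tested.

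*Foxk2* (chr11:121259987-121309900), its paralogue, had 16.6 and 15.9 FPKM in controls 1 and 2 (1248 and 1085 reads) and 14.9 and 13.2 FPKM in Foxa1/2cKO 1 and 2 (811 and 735 reads). Both Foxa1/2cKO samples were below both controls. The log2 fold change was -0.20 (SE 0.10, 95% interval -0.47 to 0.08, limma's Benjamini-Hochberg adjusted p = 0.863), and -0.11 without Foxa1/2cKO 2. The summed Foxk level was 39.4 and 39.5 FPKM in controls 1 and 2, 38.2 FPKM in Foxa1/2cKO 1 and 27.4 FPKM in Foxa1/2cKO 2.

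Of 14 listed Foxk partners, which belong to the BAP1 deubiquitinase and SIN3 complexes or are Dishevelled proteins, 13 were tested. None was called, and 0 in either direction had an unadjusted p under 0.05 (limma), beside 4.55% of all genes tested. The median log2 fold change was 0.05. The largest differences were those of *Ogt*, the O-GlcNAc transferase (128.8, 118.6, 139.5 and 167.4 FPKM in control 1, control 2, Foxa1/2cKO 1 and Foxa1/2cKO 2, log2 fold change 0.30, and 0.17 without Foxa1/2cKO 2), and *Mbd6*, a subunit of BAP1 complexes (64.8, 68.5, 54.6 and 59.7 FPKM, -0.22, and -0.28 without Foxa1/2cKO 2).

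*Foxj3* (chr4:119539661-119629119) had 14.6 and 13.8 FPKM in controls 1 and 2 (1047 and 899 reads) and 14.2 and 15.2 FPKM in Foxa1/2cKO 1 and 2 (733 and 807 reads). Its groups overlapped, with Foxa1/2cKO 1 between the controls. It had a log2 fold change of 0.04 (SE 0.09, 95% interval -0.21 to 0.29, limma's Benjamini-Hochberg adjusted p = 0.935), and -0.0033 without Foxa1/2cKO 2.

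Over the 7 members, the upper end of the 95% interval ran from a 1.05-fold level in *Foxk2* to a 1.49-fold level in *Foxo3*, and the lower end from 0.519-fold in *Foxk1* to 0.942-fold in *Foxo3*, on the log2(FPKM + 1) scale. The summed level of the 10 members was 207.1 FPKM in control 1, 200.5 FPKM in control 2, 194.6 FPKM in Foxa1/2cKO 1 and 185.1 FPKM in Foxa1/2cKO 2. Both Foxa1/2cKO samples were lower than both controls in this sum. The same held for all 44 forkhead genes, with 312.1 and 305.9 FPKM in the controls and 301.3 and 286.9 FPKM in Foxa1/2cKO. These 44 include the 10 members, so this is not a separate observation. Such sums weigh the highest genes most and do not show that each gene was lower. *Foxp4*, the highest, had 54.9 FPKM in Foxa1/2cKO 1, against 65.6 and 61.7 FPKM in controls 1 and 2. *Foxo1* and *Foxk1* were lowest in Foxa1/2cKO 2. The median log2 difference of the 7 from the control mean was -0.0033 in Foxa1/2cKO 1 and -0.059 in Foxa1/2cKO 2. In the sum of the 34 others alone the groups overlapped, with Foxa1/2cKO 1 the highest sample and Foxa1/2cKO 2 the lowest.

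Among the 34 other forkhead genes, 17 were listed at 0 in all samples and 11 were above 0 without passing the filter, with at most 17 reads and 0.551 FPKM in any sample. These 11 were *Foxb1*, *Foxc1*, *Foxc2*, *Foxd2*, *Foxf1*, *Foxh1*, *Foxi1*, *Foxj1*, *Foxn1*, *Foxo6* and *Foxr1*. The 0.551 FPKM was that of *Foxd2* in Foxa1/2cKO 2 (5, 6, 8 and 16 reads in control 1, control 2, Foxa1/2cKO 1 and Foxa1/2cKO 2). The remaining 6 were tested and 0 were called, but 1 was higher and 1 lower at an unadjusted p under 0.05 (limma). Of all genes tested, 2.39% were higher and 2.15% lower at that threshold, and 0.00928% were called.

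The higher one was *Foxn3* (chr12:99190081-99563667), a checkpoint-linked repressor, with 23.4 and 21.8 FPKM in controls 1 and 2 and 28.1 and 31.0 FPKM in Foxa1/2cKO 1 and 2. Both Foxa1/2cKO samples were above both controls, and *Foxn3* was the single forkhead gene whose interval lay wholly above 0. Its log2 fold change was 0.37 (SE 0.10, 95% interval 0.12 to 0.63, unadjusted p = 0.0142, limma's Benjamini-Hochberg adjusted p = 0.863) and 0.30 without Foxa1/2cKO 2. The lower one was *Foxp3* (chrX:7579676-7595243), the lineage factor of regulatory T cells, with 2.79 and 2.79 FPKM in the controls (164 and 149 reads) and 1.86 and 1.26 FPKM in Foxa1/2cKO (79 and 55 reads).

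The log2 fold change of *Foxp3* was -0.58 (SE 0.18, 95% interval -1.05 to -0.10, unadjusted p = 0.0273, limma's Benjamini-Hochberg adjusted p = 0.863) and -0.41 without Foxa1/2cKO 2. Of its 50-base stretches, 13.9% were shared with overlapping or neighbouring annotated genes (*Ccdc22*, *Flicr* and *Gm36995*), so these reads are uncertain. All 7 regulatory T cell markers, *Foxp3* among them, had a lower mean in Foxa1/2cKO. All 7 were lowest in Foxa1/2cKO 2, as were 33.7% of all genes tested. The summed levels of these markers were 103.3, 121.0, 119.6 and 52.5 FPKM in control 1, control 2, Foxa1/2cKO 1 and Foxa1/2cKO 2. Their part in the *Foxp3* values was not tested.

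*Foxm1* (chr6:128362994-128375886), the forkhead factor of the G2 and M phases, had the widest interval of the 13, with 26.7 and 27.8 FPKM in controls 1 and 2 and 24.9 and 9.60 FPKM in Foxa1/2cKO 1 and 2. Foxa1/2cKO 2 alone was far below the rest. The fitted difference was a log2 fold change of -0.77 (95% interval -1.89 to 0.35, limma's Benjamini-Hochberg adjusted p = 0.863) and -0.13 without Foxa1/2cKO 2. *Foxj2* and *Foxn2* overlapped between the groups, at 11.9 to 13.9 and 13.4 to 13.8 FPKM over the 4 samples.

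All 15 listed Foxm1 targets, genes of mitosis, were tested, with 0 called. At an unadjusted p under 0.05 (limma) there were 0, beside 4.55% of all genes tested. Each of the 15 was lowest in Foxa1/2cKO 2, as were 33.7% of all genes tested. In Foxa1/2cKO 1, 10 of the 15 were above both controls, and the share of all genes that were so was not worked out. Their median log2 difference from the control mean was 0.11 for Foxa1/2cKO 1 but -1.41 for Foxa1/2cKO 2, and their summed level was 651.2, 688.0, 746.3 and 268.7 FPKM in control 1, control 2, Foxa1/2cKO 1 and Foxa1/2cKO 2. The mitotic kinase genes *Nek2* (16.5, 16.6, 15.5 and 5.61 FPKM in that order) and *Plk1* (37.0, 39.5, 36.5 and 13.5 FPKM) had the largest fold changes, -0.75 each on the log2 scale, and -0.09 and -0.06 without Foxa1/2cKO 2. The low values of *Foxo1*, *Foxk1* and *Foxm1* came from the sample in which these genes were low, and the part of cycling cells in them was not tested.

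**Figure D4:**
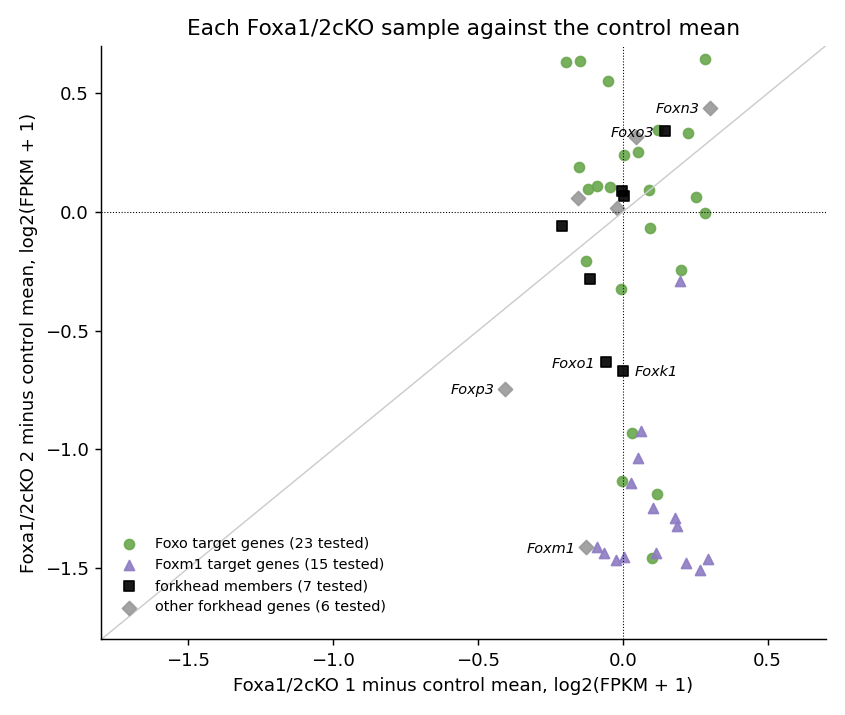
Each point is a gene, with Foxa1/2cKO 1 minus the control mean on the x axis and Foxa1/2cKO 2 minus the control mean on the y axis, both on log2(FPKM + 1); the grey diagonal marks equal differences. The Foxm1 targets have a median of 0.11 on the x axis and -1.41 on the y axis, and *Foxo1* and *Foxk1* lie near 0 on the x axis and at -0.63 and -0.67 on the y axis.

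Markers of other cells that a sort of thymus could hold were read beside these values. The 12 thymic epithelial markers summed to 18.7, 15.4, 21.2 and 19.6 FPKM in control 1, control 2, Foxa1/2cKO 1 and Foxa1/2cKO 2, both Foxa1/2cKO samples being higher, and 4 of the 12 passed the filter. These were *Epcam*, *Cldn4*, *Ly75* and *Aire*, the last at 3.27, 1.71, 3.43 and 1.82 FPKM with overlapping groups, while *Krt5*, *Krt14*, *Psmb11* and *Foxn1* had at most 6 reads and *Krt8*, *Krt18*, *Prss16* and *Cldn3* at most 18 reads in any sample. The 4 that passed the filter held most of the sum. *Epcam* and *Ly75* were higher in both Foxa1/2cKO samples, and *Krt8* and *Cldn3*, at few reads, were lower in both. The groups overlapped for every other marker of this list. Stromal and endothelial markers summed to 50.6, 56.5, 57.8 and 62.9 FPKM, nearly all of it *Pecam1*, and the 7 others to 1.99, 1.35, 1.82 and 1.08 FPKM, which overlapped. The DP thymocyte markers summed to 3059, 3141, 3171 and 3906 FPKM, higher in both Foxa1/2cKO samples. The sums of B cell markers (83.5, 54.9, 111.9 and 58.5 FPKM), myeloid markers (37.1, 22.1, 35.2 and 18.3 FPKM) and erythroid markers (0.608, 1.12, 2.67 and 1.01 FPKM) overlapped between the groups. No gene of these lists was called, and the part of such cells in the forkhead values was not tested.

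The genes around the floxed loci were also read from the fit. Within 1 Mb of *Foxa1* 10 genes were listed, of which 5 were at 0 in all samples and 2 were tested, *Prps1l3* (log2 fold change 0.12) and *Mipol1* (-0.11, and 0.085 without Foxa1/2cKO 2). Within 1 Mb of *Foxa2* 21 genes were listed, of which 10 were at 0 and 4 were tested, *Xrn2* (0.16), *Nxt1* (0.01), *Gzf1* (-0.01) and *Cst3* (0.36, and 0.12 without Foxa1/2cKO 2). None of the 6 was called by limma with Benjamini-Hochberg adjustment at 0.05.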

How the data were processed

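RNA from 4 samples of CD69+DP thymocytes, 2 control and 2 Foxa1/2cKO, was sequenced on the Illumina NextSeq 500. Alignment in BaseSpace (mm10, RefSeq genes) and counting with HTSeq (union mode) were done by the authors, whose processing notes also name TopHat, Picard and DESeq2. The deposited values are FPKM per gene, and the tool that made them is not given in the sources used here. The sample totals behind them follow size factors taken as medians of ratios (0.866 to 1.20), which corrects for depth and RNA composition but not for fewer cells of a type. All 4 columns of values belonged to these samples (0 to others).

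The steps of each gene's values gave back whole reads (tolerance 0.001 of a read) for 100% of the 16069 genes above 0. Limits for a count of 0 used 3 reads and cover counting error only. limma 3.58.1 in R 4.3.3 was run on log2(FPKM + 1) with a mean-variance trend, for genes that reached 1 FPKM in 2 samples or more, with Benjamini-Hochberg adjustment at 0.05, 2 residual and 2.69 prior degrees of freedom, two-sided. Fold changes with a pseudocount of 1 understate the change of low genes. The fit was also run on simulated data in which all samples of a gene varied alike. Since Foxa1/2cKO 2 stood apart in the real data, that run does not check the calls made here. Positions of genes are from RefSeq (GRCm38.p6) and coding stretches from GENCODE M21 of the same assembly. Shared 50-base stretches were counted on either strand over the longest annotated transcript. Tables and figures were made in Python 3.11.15 with numpy 2.4.6, pandas 2.3.3 and matplotlib 3.10.9.

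The 10 members and all gene lists were chosen with earlier results of these data known, and give no independent support. Genes named were the members, other forkhead genes with at least 1 read, the tested genes of each list with an unadjusted p under 0.05 or otherwise the 2 with the largest absolute fold change, markers of other cell types and genes within 1 Mb of *Foxa1* or *Foxa2*. Those named outside this rule are said to be chosen after their values were seen. Protein sequences were not used here. The results of some genes and sequences are not reported here.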

Additional observations from a re-analysis of the deposited data

How the results depend on the processing

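With 2 samples per group and 1 of them apart, an interval that left out 0 was not enough for a call. *Foxn3* and *Foxp3* had such intervals and an adjusted p of 0.863 (limma, Benjamini-Hochberg). The smallest difference that would be called was not worked out, so genes not called may still differ. The number of genes called, 1, became 0 with a pseudocount of 0.1, with no filter on low values, with at least 10 reads in every sample, with limma-voom on recovered reads and with scaling to all recovered reads, which was chosen after seeing the data. In each of these, and with upper-quartile scaling (1 gene called), 0 members were called, and each of the 13 forkhead genes kept the sign of its fold change. Leaving out 1 sample at a time, with the lone sample assumed to vary like the other group, gave 0 to 2559 genes and 0 to 3 members called. The highest values were those without Foxa1/2cKO 1, where *Foxo1* (log2 fold change -0.63), *Foxk1* (-0.67) and *Foxk2* (-0.28) were called, as were *Foxn3* (0.44), *Foxo4* (0.32), *Foxp3* (-0.75) and *Foxm1* (-1.41), and without Foxa1/2cKO 2 19 genes and 0 members were called. The sign reversed for *Foxj2* and *Foxn2* without control 1 (0.00 and 0.01) and without Foxa1/2cKO 1 (0.059 and 0.019), and for *Foxj3* and *Foxk1* without Foxa1/2cKO 2 (-0.0033 and 0.0018). Over the samples left out, the log2 fold change ran from -0.15 to 0.059 for *Foxj2*, from -0.021 to 0.019 for *Foxn2*, from -0.0033 to 0.090 for *Foxj3* and from -0.67 to 0.0018 for *Foxk1*. The cause was not tested. None of the 13 forkhead genes (0 of 13) needed its reads multiplied to reach a whole gene length.

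Whether the replicate numbers shared by the groups pair the samples could not be decided. The correlation of deviations was -0.059 for the same number and 0.059 for the other number. With 2 samples per group these are the same value with the sign turned, and Foxa1/2cKO 2 stood apart. With the replicate number as a block, 1 gene and 0 members were called, and at an unadjusted p under 0.05 165 genes were higher and 213 lower, against 258 and 232 without the block. With the block, the genes at an unadjusted p under 0.05 became 1 of the Foxo targets in place of 2, 0 of the Foxo regulators in place of 1 and 1 of the Foxm1 targets in place of 0, while *Foxm1* joined *Foxn3* and *Foxp3* among the forkhead genes past that unadjusted threshold. No forkhead gene was called with the block.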
